A study of Caenorhabditis elegans with 12 samples.

Results

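All cells of C. elegans larvae other than the amphid sheath (AMsh) glia were compared between che-2(e1033) and wild type animals. The comparison used the 6 libraries labelled non-AMsh, 3 of each genotype, of the 12 libraries of the series. The other 6 libraries are the AMsh cells sorted from the same animals. Wild type animals were of strain OS4079 and che-2(e1033) animals of strain OS11549, and both strains carried F16F9.3pro::dsRed, a red fluorescent reporter driven by a promoter that is active in AMsh glia. Larvae were synchronised by L1 arrest and kept at 20 °C in shaken liquid S-basal culture with E. coli HB101 until they were L3 and L4 larvae, after 36 to 42 h. They were dissociated, and dsRed-negative cells were collected by flow cytometry after dead cells, fragments without a nucleus and aggregates had been gated out. The RNA was amplified with a SMARTer kit before sequencing. One library of each genotype carries each of the codes E30, E35 and E36, and libraries are named here by genotype and code. Each library pools a large number of larvae, and the labels give neither the hour at which each was collected nor its exact stage. Each genotype is a single strain, so the che-2(e1033) allele and any other difference between the strains cannot be told apart, and neither can genotype and stage.

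Cilia are antenna-like extensions of the endings of sensory neurons, and in C. elegans they are found on sensory neurons alone. They are built by intraflagellar transport (IFT), in which kinesin and dynein motors carry protein particles along the axoneme, and che-2 encodes a subunit of the particle. Ciliated neurons sense food, osmolarity and pheromone, and through insulin-like and TGF-beta ligands and the nuclear receptor DAF-12 they act on the choice between reproductive growth and the dauer larva, a resistant stage with a cuticle of its own. The cuticle is remade at each molt by collagens and cuticlins that are transcribed in waves, and late in larval life the hermaphrodite gonad makes sperm first and oocytes afterwards. Stage and tissue therefore both mark the RNA of a whole larva.

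The non-AMsh libraries held 21073927 to 26019499 counts in wild type and 15420762 to 18211377 counts in che-2, and 17555 to 19298 genes were detected in each. Genes of the mitochondrial genome took 10.5 to 20.3% of the counts and ribosomal RNA genes 1.28 to 3.31%. The che-2 transcript was rare. Its level, as counts scaled to library size (CPM), was 0.485, 3.77 and 0.285 CPM in wild type E30, E35 and E36, the order used throughout. In che-2 it was 1.27, 3.71 and 0.281 CPM. These values overlapped (log2 fold change 0.21, SE 1.51, adjusted p = 0.987), and the labels do not say whether e1033 is an allele that would lower the RNA. F16F9.3 itself, the gene whose promoter drives the reporter, was at 9.296, 5.23 and 4.397 CPM in wild type and 8.58, 5.19 and 6.75 CPM in che-2 (log2 fold change 0.12, SE 0.58, adjusted p = 0.982). The 10 AMsh glia genes measured had summed levels of 168.5 to 248.6 CPM in wild type and 108.2 to 149.5 CPM in che-2. Of them, 2 lay lower in che-2 without overlap (20%, beside 10.0% of all genes). These were vap-1 (log2 fold change -1.72, SE 0.92, adjusted p = 0.577) and T02B11.3 (log2 fold change -0.55, SE 0.65, adjusted p = 0.866), and their part in the results was not tested. The AMsh receptor gene ver-1 had no count in 5 of the 6 libraries. Markers of body wall muscle, intestine, hypodermis, neurons and the germ line were all present, with the median of each list at or above 3.39 log2 CPM in every library. In sorted bulk samples, fewer cells of a type and less RNA per cell cannot be told apart.

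Libraries of one genotype differed widely. In a principal component analysis of log2 CPM over all tested genes, the first component took 52.7% of the variance and ran from wild type E30 at -162.51 through wild type E35 at -69.22, wild type E36 at -10.6 and che-2 E30 at 38.7 to che-2 E35 and E36 at 99.36 and 104.27. The second component, with 16.6%, set che-2 E30 apart at 107.76. Among the 10306 genes that averaged 5 CPM or more, wild type E30 was at least 8-fold above wild type E36 for 144 genes and at least 8-fold below it for 181. Within che-2, the E30 library was at least 8-fold above E35 for 115 genes and below it for 244. Many of the group differences lie along this same axis, so single libraries are given for the genes described.

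**Figure D1:**
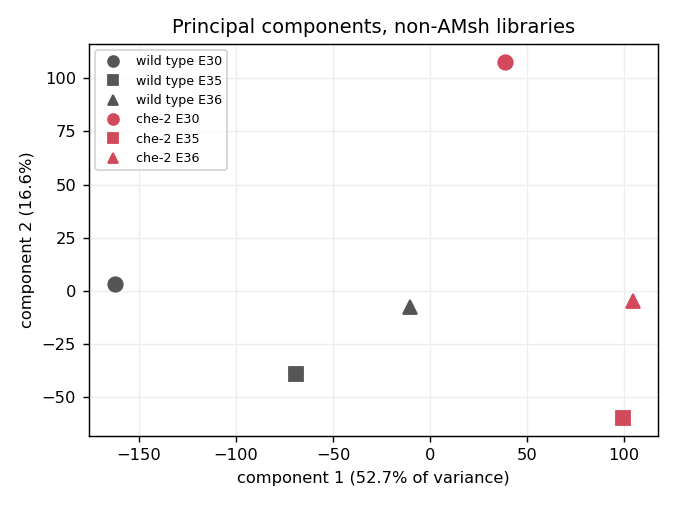
The plot places the 6 non-AMsh libraries on the first 2 principal components of log2 CPM (axes in component units, share of variance in the labels), with grey for wild type, red for che-2 and the marker shape for the code. The 3 wild type libraries sit between -162.51 and -10.6 on component 1 and the 3 che-2 libraries between 38.7 and 104.27, while che-2 E30 stands alone at 107.76 on component 2.

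Of 16690 genes tested, 24 passed an adjusted p of 0.05 in edgeR's quasi-likelihood test (0.144% of those tested). These comprised 6 genes that rose in che-2 (0.0359%) and 18 that fell (0.108%), and all 24 had che-2 values that did not overlap wild type. Before adjustment, 970 genes were higher and 751 lower at p under 0.05, and the median log2 fold change over all tested genes was -0.01. Without overlap between the genotypes, 2033 genes were higher in che-2 (12.2% of those tested) and 1674 lower (10.0%), together 22.2%. The count of calls depended on the tool: DESeq2 called 778 genes (4.98% of 15628 with an adjusted p), 453 higher (2.9%) and 325 lower (2.08%), among them all 24. It also depended on scaling: library totals without TMM moved the median of all genes to 0.20 and gave 37 genes higher and 44 lower. Among the non-AMsh libraries, no gene passed without wild type E35, che-2 E30 or che-2 E36, while 5 passed without wild type E30, 46 without wild type E36 and 2 without che-2 E35. The spread is estimated over all 12 libraries, which were treated as independent although the AMsh and non-AMsh fractions come from the same animals. With the 6 non-AMsh libraries alone, 11 genes passed, 10 of them among the 24. With the code as a replicate block, 167 genes passed in the 12 libraries and 496 in the 6 non-AMsh libraries. Leaving out an AMsh library also moved the count, to 102 without wild type AMsh E30, 38 without E36 and 12 without E35 of the same group. Without che-2 AMsh E36 it was 10. The 2 AMsh libraries with the fewest genes detected, wild type E30 and che-2 E35, stood apart, and without both of them 290 genes passed (154 higher and 136 lower, a choice made after the data were seen). The p values measure the spread between these samples, which the labels do not say to be separate cultures.

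Most of the 24 genes fell into a group that was close to absent in one genotype and a small group with a graded change. Of the 18 genes that fell, 15 had a mean under 1 CPM in che-2, and 3 of these had no count in any che-2 library. Of the 6 that rose, 2 had no count in wild type. The graded rises were Y69A2AR.19, Y43F8A.2 and Y113G7C.1, and the graded fall was clec-60. The falls col-108 and col-158 lay between these groups, with means of 1.06 and 13.55 CPM in che-2.

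**Figure D2:**
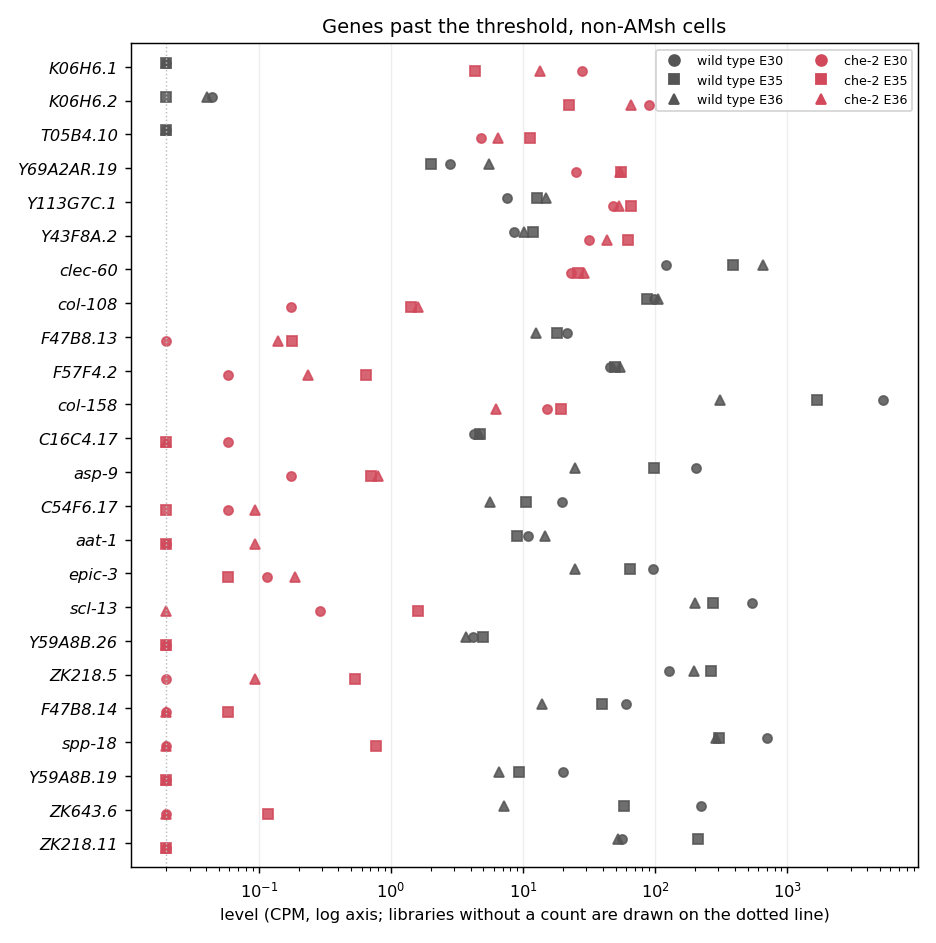
Each row is a gene past the threshold, from the largest rise at the top to the largest fall at the bottom, and each point is the level in one non-AMsh library (CPM, log axis, libraries without a count on the dotted line). In each of the 24 rows the red che-2 points and the grey wild type points stand on separate sides, and K06H6.1 and T05B4.10 at the top have all 3 wild type points on the dotted line.

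Among the falls, spp-18, which encodes a saposin-like protein of the type that lyses bacterial membranes, was at 705, 304 and 286 CPM in wild type and 0, 0.766 and 0 CPM in che-2 (log2 fold change -10.74, SE 1.33, adjusted p = 0.0175). The nearby aat-1, an amino acid transporter subunit, was at 10.9, 9.04 and 14.6 CPM in wild type and 0, 0 and 0.0938 CPM in che-2. Its 798 wild type counts against 2 in che-2 gave a ratio with a 95% counting interval of 89.3 to 2677 (adjusted p = 0.018). Both genes lie on chromosome IV, spp-18 from 9593693 to 9594425 and aat-1 from 9598977 to 9601695 (WBcel235). The genes between them, F27C8.3 and F27C8.2, had no count in che-2 and did not pass, with 2.07, 5.94 and 3.54 CPM in wild type for F27C8.2 (adjusted p = 0.0577). Outward from the pair, pei-1 lay lower without passing (log2 fold change -2.75, SE 1.46, adjusted p = 0.574), and trcs-1 and elt-1 overlapped between the genotypes.

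A second run of low genes lay on chromosome V. ZK218.5 (17101132 to 17101982) was at 128, 264 and 195 CPM in wild type and 0, 0.5305 and 0.0938 CPM in che-2 (log2 fold change -9.87, SE 1.23, adjusted p = 0.0175). ZK218.11 (17107530 to 17108418) was at 56.2, 211 and 52.3 CPM in wild type and had no count in che-2, which makes it at least 1904-fold lower against a floor of 3 counts over the che-2 group (adjusted p = 0.0175). Between them ZK218.7, at 23.7, 54.03 and 25.7 CPM in wild type and 0, 1.42 and 0.0469 CPM in che-2, did not pass (log2 fold change -6.16, SE 1.25, adjusted p = 0.0682). Neither did ZK218.3, at 2.56, 2.78 and 3.46 CPM in wild type with no count in che-2 (adjusted p = 0.228). To their left srh-237 and T05E12.6 overlapped, the latter at 14.5, 42.4 and 57.98 CPM in wild type and 82.5, 39.2 and 33.4 CPM in che-2.

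The same pattern of called neighbours recurred at 3 further places on chromosome V. F47B8.14 (chromosome V, 14320546 to 14321313) was at 59.7, 39.8 and 14.01 CPM in wild type and 0, 0.0589 and 0 CPM in che-2. That is 2543 counts to 1, a ratio with a 95% interval of 369.8 to 81500 (adjusted p = 0.0175). Its neighbour F47B8.13 was at 21.5, 17.9 and 12.58 CPM in wild type and 0, 0.177 and 0.141 CPM in che-2 (log2 fold change -7.27, SE 1.09, adjusted p = 0.0272). Beside them F47B8.2 and F47B8.3 lay lower without passing, F47B8.4 overlapped, and all 3 stayed above 7 CPM in each library. Of the 16 other genes tested in this stretch, 7 did not overlap, beside 22.2% of all genes in either direction, and none passed. The 7 went both ways. F47B8.18 was at 7.62, 13.9 and 7.45 CPM in wild type and 0.406, 0.118 and 0 CPM in che-2 (log2 fold change -5.78, SE 1.14, adjusted p = 0.0791), and F14D7.12 lay lower (log2 fold change -3.04, SE 0.76, adjusted p = 0.134). spig-5 lay higher at 0, 0.424 and 0.366 CPM in wild type and 7.54, 8.25 and 8.49 CPM in che-2 (log2 fold change 4.91, SE 0.92, adjusted p = 0.0618), as did spig-4 (log2 fold change 3.29, SE 1.15, adjusted p = 0.3). F14D7.8 was higher too (log2 fold change 1.69, SE 1.26, adjusted p = 0.739). Y59A8B.19 (18007230 to 18009041) had no count in che-2 and 19.9, 9.28 and 6.596 CPM in wild type, at least 219.3-fold lower (adjusted p = 0.0384). Y59A8B.26 (18010017 to 18010837) had none either, against 4.19, 4.99 and 3.71 CPM, at least 78.9-fold lower (adjusted p = 0.0476). Next to them linc-62 had no count in che-2 and 0.529, 0.377 and 0.163 CPM in wild type (adjusted p = 0.43), and WBGene00005511 lay higher without passing (log2 fold change 2.18, adjusted p = 0.567). Farther out on either side lon-8 and prp-6 overlapped between the genotypes. Toward the low-coordinate end of the chromosome the change was a rise, with K06H6.2 (585778 to 587250) at 0.0441, 0 and 0.0407 CPM in wild type and 90.2, 22.4 and 66.1 CPM in che-2 (ratio interval 570.2 to 17030, adjusted p = 0.0183). K06H6.1 (588135 to 589646) had no count in wild type and 28.1, 4.303 and 13.5 CPM in che-2, at least 347.3-fold higher (adjusted p = 0.0476). Beside them K06H6.4 lay higher without passing, at 0, 0 and 0.0407 CPM in wild type and 4.58, 1.53 and 1.22 CPM in che-2 (adjusted p = 0.256). So did nstp-7, with no count in wild type and 6.61, 1.12 and 0.328 CPM in che-2 (adjusted p = 0.293). ZK488.6, ZK488.5 and WBGene00015763 overlapped between the genotypes. Reads from overlapping or near-identical genes cannot be separated in the counts, and the strand setting is not given in the sources used here.

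In all, 10 of the 24 genes had another called gene within 20 kb. Chromosome V held 15 of the 24, against 21.7% of the tested genes, chromosome IV held 6, chromosome II 2 and chromosome III 1, and chromosomes I and X, the latter being the chromosome of che-2, held none. T05B4.10 (chromosome V, 4119890 to 4120729), the remaining rise without a wild type count, was at 4.81, 11.32 and 6.42 CPM in che-2, at least 169.3-fold higher (adjusted p = 0.018). Within 20 kb of it lie the pharyngeal gland genes phat-5 and phat-4, which lay higher without passing.

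The other falls included 2 cuticle collagens, a protease and a secreted protein. col-108 was nearly level among wild type libraries, at 97.2, 86.1 and 105 CPM in wild type and 0.174, 1.42 and 1.59 CPM in che-2 (log2 fold change -6.49, SE 0.83, adjusted p = 0.0175). col-158 was at 5250, 1685 and 309 CPM in wild type and 15.1, 19.3 and 6.19 CPM in che-2 (log2 fold change -7.48, SE 1.23, adjusted p = 0.0476), so that its wild type libraries spanned a wide range and its che-2 libraries a narrow one. asp-9, an aspartyl protease, was at 203, 97.9 and 24.5 CPM in wild type and 0.174, 0.707 and 0.797 CPM in che-2 (log2 fold change -7.57, SE 1.22, adjusted p = 0.0461). scl-13, of the secreted SCP/TAPS protein family, was at 542, 272 and 199.6 CPM in wild type and 0.2899, 1.59 and 0 CPM in che-2 (log2 fold change -9.09, SE 1.47, adjusted p = 0.0461). epic-3, F57F4.2, C54F6.17, ZK643.6 and C16C4.17 completed the group, and no che-2 library of theirs was above 0.648 CPM. Their wild type libraries were at 96.6, 64.7 and 24.6 CPM for epic-3 (adjusted p = 0.018) and at 45.03, 49.2 and 54.5 CPM for F57F4.2 (adjusted p = 0.0175), with no overlap of che-2. C54F6.17, ZK643.6 and C16C4.17 had 3, 2 and 1 counts in che-2, and their 95% intervals of the ratio were 74.9 to 1068, 720 to 21490 and 44.7 to 9930 (adjusted p = 0.0183, 0.0476 and 0.0476). col-158 shares 20 bases of exon with nphp-4, and ZK643.6 shares 28 bases of exon with ZK643.2 on the opposite strand.

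The remaining called genes had graded changes. clec-60, a C-type lectin of the intestinal immune response, was at 119.7, 386 and 649.7 CPM in wild type and 23.02, 26.1 and 28.7 CPM in che-2 (log2 fold change -3.89, SE 0.66, adjusted p = 0.0476), with the che-2 libraries close together. Y69A2AR.19 was at 2.82, 2.03 and 5.54 CPM in wild type and 24.99, 54.99 and 54.5 CPM in che-2 (log2 fold change 3.69, SE 0.48, adjusted p = 0.0175). Y43F8A.2 was at 8.59, 11.9 and 10.1 CPM in wild type and 31.3, 61.7 and 42.8 CPM in che-2 (log2 fold change 2.15, SE 0.36, adjusted p = 0.0476), and Y113G7C.1 was at 7.58, 12.7 and 15.02 CPM in wild type and 47.5, 65.3 and 53.5 CPM in che-2 (log2 fold change 2.23, SE 0.38, adjusted p = 0.0486). Just outside the threshold, clec-79 (log2 fold change 2.48, SE 0.43, adjusted p = 0.0533), the pharyngeal gland gene phat-4 (log2 fold change 2.27, SE 0.40, adjusted p = 0.0577), W03F11.4, Y57G7A.6 and the neprilysin-like nep-23 had the smallest p among the higher genes with a mean of at least 5 CPM that did not pass. Their values did not overlap. phat-4 lay between 18.9 and 29.1 CPM in wild type and between 99.7 and 118.1 CPM in che-2.

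Of all gene lists, dauer cuticle genes had the lowest median change, although none of the listed genes passed. Of 6 dauer cuticle genes, 5 lay lower in che-2 without overlap (83.3%, beside 10.0% of all genes). The list had a median log2 fold change of -9.26, beside -0.01 over all genes. The collagen col-2 was at 16640, 3464 and 560.1 CPM in wild type and 3.25, 20.3 and 2.297 CPM in che-2 (log2 fold change -9.65, SE 1.79, adjusted p = 0.0618). col-40 was at 14320, 2938 and 516 CPM in wild type and 0.812, 26.1 and 5.53 CPM in che-2 (log2 fold change -9.10, SE 1.81, adjusted p = 0.0633). col-183 was at 13420, 2753 and 405 CPM in wild type and 1.45, 19.2 and 3.61 CPM in che-2 (log2 fold change -9.42, SE 1.93, adjusted p = 0.0691). The cuticlin cut-1 was at 910.5, 130.4 and 20.4 CPM in wild type and 1.91, 0.884 and 0.328 CPM in che-2 (log2 fold change -8.41, SE 1.79, adjusted p = 0.0815). In each of these 4 genes wild type E30 was highest and wild type E36 lowest, and every che-2 library lay below wild type E36. col-85 had the same shape at 11580, 2132 and 346 CPM in wild type and 0.5798, 16.7 and 2.34 CPM in che-2 (log2 fold change -9.49, SE 2.11, adjusted p = 0.0954), and cut-5 overlapped at 6.57, 4.29 and 2.28 CPM in wild type and 2.38, 3.54 and 1.45 CPM in che-2. Summed over the list, the level was 56880, 11420 and 1850 CPM in wild type and 10.4, 86.6 and 15.6 CPM in che-2. The members were chosen with earlier results known, so these counts are a description.

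Collagens as a family were split. Of 171 cuticle collagens tested, 41 lay lower without overlap (24%, beside 10.0% of all genes), the 2 that fell among them. Another 5 lay higher (2.92%, beside 12.2%), and the median was 0.02 (-0.02 under upper-quartile scaling). Of the 41, 31 were highest in wild type E30 and lowest in wild type E36, and 28 had a log2 fold change of -6 or lower. Of those with no call, col-36 was at 9211, 2424 and 459 CPM in wild type and between 3.80 and 18.9 CPM in che-2 (log2 fold change -8.52, SE 1.497, adjusted p = 0.0551). col-51 was at 6098, 1320 and 136 CPM in wild type and 0.2899, 4.597 and 0.703 CPM in che-2 (log2 fold change -10.40, SE 1.96, adjusted p = 0.0624). col-37 was at 8346, 2016 and 224 CPM in wild type and 0.348, 10.6 and 2.72 CPM in che-2 (log2 fold change -9.597, SE 1.85, adjusted p = 0.0624). Over all genes, 92 had no overlap, a log2 fold change of -6 or lower and at least 5 CPM in wild type, 27 of them col collagens, 9 hedgehog-related and 5 C-type lectins, and 81 were highest in wild type E30 and lowest in wild type E36. In the opposite direction, 7 genes had no overlap, a log2 fold change of 6 or higher and at least 5 CPM in che-2.

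Hedgehog-related genes, which encode secreted cuticle-associated proteins of the ground-like, groundhog and warthog families, had the same shape in part. Of 57 tested, 15 lay lower without overlap and none higher (26.3% and 0%, beside 10.0% and 12.2% of all genes). None passed, and the median was -0.66. grl-23 was at 6803, 1341 and 141 CPM in wild type and 0.754, 6.78 and 0.703 CPM in che-2 (log2 fold change -9.98, SE 1.92, adjusted p = 0.0624). grl-20 was at 2913, 496 and 85.3 CPM in wild type and 1.27, 6.19 and 1.59 CPM in che-2 (log2 fold change -8.59, SE 1.61, adjusted p = 0.0618). grl-25 was at 8073, 1545 and 147 CPM in wild type and 0.2899, 7.72 and 2.06 CPM in che-2 (log2 fold change -9.92, SE 2.03, adjusted p = 0.0691). In 12 of the 15, wild type E30 was highest and wild type E36 lowest, and the che-2 libraries of these 3 genes were all under 8 CPM. By family, 7 of 29 grl, 5 of 16 grd and 3 of 10 wrt genes lay lower. grl-19 had no count in che-2 and 33.9, 18.4 and 2.08 CPM in wild type, at least 327.4-fold lower (adjusted p = 0.0624). grd-8 had none either, against 33, 19.3 and 0.57 CPM, at least 316.9-fold lower (adjusted p = 0.149).

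**Figure D3:**
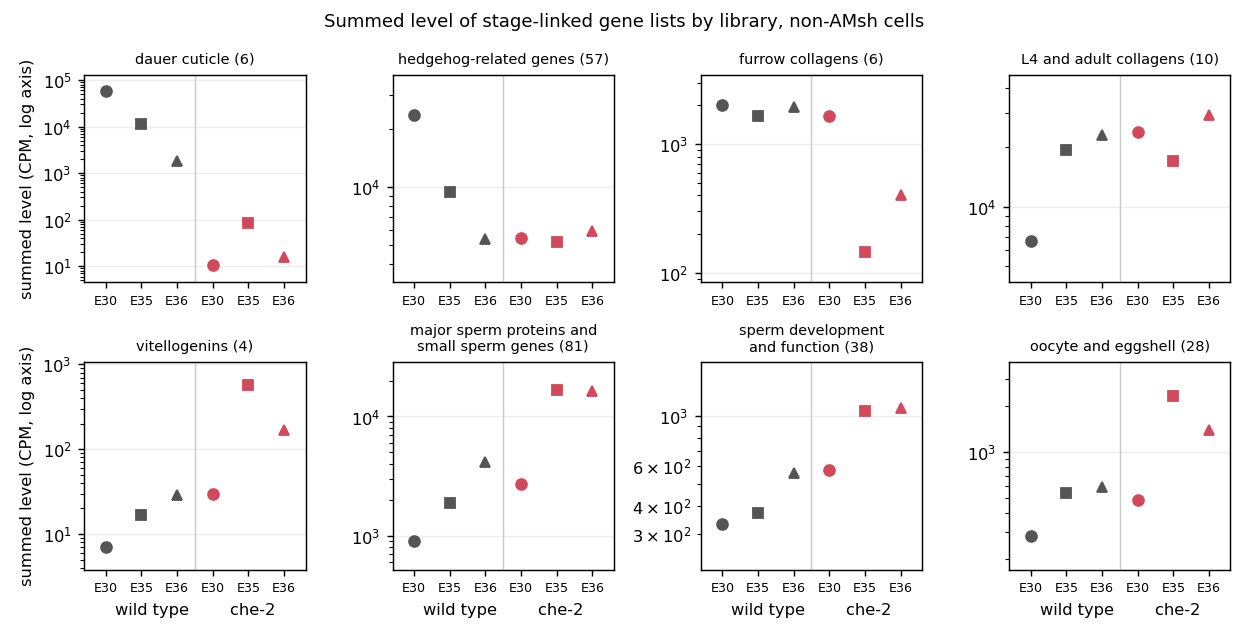
Each panel gives the summed level of a gene list (CPM, log axis, number of tested members in the title) in the 6 non-AMsh libraries, wild type in grey and che-2 in red, by code. The dauer cuticle sum lies between 1850 and 56880 CPM in wild type and between 10.4 and 86.6 CPM in che-2, the furrow collagens of che-2 E35 and E36 lie below the other 4 libraries, and the yolk, sperm and oocyte sums are highest in che-2 E35 and E36.

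Genes that are high in dauer and long-lived animals were lower in part. Of 20 tested, 11 lay lower without overlap (55.0%, beside 10.0% of all genes), none higher (beside 12.2%), and none passed (median -0.76). mtl-1, a metallothionein of the intestine, was at 540.5, 51.5 and 35.4 CPM in wild type and 6.32, 3.01 and 2.86 CPM in che-2 (log2 fold change -5.69, SE 1.36, adjusted p = 0.118). sod-3, a mitochondrial superoxide dismutase, was at 17.01, 3.49 and 5.46 CPM in wild type and 0.464, 0.648 and 0.281 CPM in che-2 (adjusted p = 0.216). scl-1 was at 63.3, 14.5 and 2.28 CPM in wild type and 0.522, 0.471 and 0.328 CPM in che-2 (adjusted p = 0.147). The small heat shock gene hsp-12.6 was at 17.9, 8.29 and 5.17 CPM in wild type and 0, 0.943 and 0.7501 CPM in che-2 (adjusted p = 0.227). In all 4 genes wild type E30 was the highest library. hsp-70, the inducible cytosolic chaperone, was lower in each che-2 library at 624, 254 and 387 CPM in wild type and 43.7, 29.1 and 86.8 CPM in che-2 (log2 fold change -2.99, SE 0.57, adjusted p = 0.0624) and did not follow the order of the wild type codes. Of 21 heat shock genes, 5 lay lower (23.8%) and 2 higher (9.52%) without overlap. Of 23 genes of the dauer decision, 6 lay lower (26.1%) and none higher without overlap. Among these, daf-12 was at 46.8, 25.2 and 21.5 CPM in wild type and 17.4, 9.96 and 9.85 CPM in che-2 (log2 fold change -1.33, SE 0.43, adjusted p = 0.267). Its co-repressor din-1 was at 313, 348 and 149 CPM in wild type and 136, 102 and 56.1 CPM in che-2 (log2 fold change -1.46, SE 0.50, adjusted p = 0.291).

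Stage-linked cuticle genes outside the dauer set separated che-2 E30 from the other che-2 libraries. The 6 furrow collagens, which form the circumferential grooves of the cuticle, had summed levels of 2031, 1642 and 1953 CPM in wild type and 1661, 144.4 and 399.2 CPM in che-2. dpy-10 was at 274, 198 and 186 CPM in wild type and 163, 13.03 and 31.3 CPM in che-2 (log2 fold change -1.67, SE 0.98, adjusted p = 0.632), and dpy-2, dpy-3 and dpy-9 likewise lay lower without overlap, in each case with che-2 E30 close to wild type and E35 lowest. dpy-7 and dpy-8 overlapped through che-2 E30, dpy-7 at 412.6, 273 and 353 CPM in wild type and 294, 19.9 and 62.2 CPM in che-2 (log2 fold change -1.47, SE 0.90, adjusted p = 0.656). The adult collagen col-19 had the reverse shape, at 22.4, 92.3 and 288 CPM in wild type and 23.4, 2604 and 697 CPM in che-2 (log2 fold change 3.04, SE 1.62, adjusted p = 0.575), and col-7 was at 0.881, 8.53 and 26.5 CPM in wild type and 0.05798, 156 and 51.01 CPM in che-2 (log2 fold change 2.52, SE 1.82, adjusted p = 0.724). Of 10 L4 and adult collagens, none was free of overlap. Molting genes gave 3 of 37 lower without overlap (8.11%, under the 10.0% of all genes) and none higher. Among these, nhr-23, the nuclear receptor that drives the molting cycle, was at 72.6, 69.5 and 50.2 CPM in wild type and 38.96, 15.4 and 24.14 CPM in che-2 (log2 fold change -1.29, SE 0.43, adjusted p = 0.276). Of 20 heterochronic genes, which time larval cell fates, 4 lay lower without overlap (20.0%). Among these, lin-41 was at 24.4, 13.7 and 12.58 CPM in wild type and 3.48, 9.902 and 5.77 CPM in che-2 (log2 fold change -1.40, SE 0.59, adjusted p = 0.425). lin-29 was at 7.58, 15.7 and 9.69 CPM in wild type and 6.09, 5.54 and 5.49 CPM in che-2 (log2 fold change -0.95, SE 0.76, adjusted p = 0.763).

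Many genes of sperm lay higher in che-2. Of 38 genes of sperm development and function, 19 lay higher without overlap (beside 12.2% of all genes), none lower, and the median was 1.33, but none passed. spe-11, which encodes a sperm-supplied protein needed by the embryo, was at 3.83, 4.899 and 10.3 CPM in wild type and 22.7, 64.9 and 54.5 CPM in che-2 (log2 fold change 2.90, SE 0.62, adjusted p = 0.0838). spe-26, a kelch-type protein of spermatogenesis, was at 1.54, 0.848 and 3.71 CPM in wild type and 12.99, 19.6 and 25.4 CPM in che-2 (log2 fold change 3.25, SE 0.75, adjusted p = 0.108). The sperm phosphatase gene gsp-3 was at 31.3, 40.5 and 73.5 CPM in wild type and 87.4, 294 and 285 CPM in che-2 (adjusted p = 0.191). Its near copy gsp-4 was at 5.59, 13.6 and 25.04 CPM in wild type and 33.2, 121.7 and 113 CPM in che-2 (adjusted p = 0.147). In all 4 of these genes che-2 E30 was the lowest che-2 library and wild type E36 the highest wild type library, so these 2 libraries were the closest across genotypes.

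Major sperm proteins form the cytoskeleton of the crawling nematode sperm and signal to the oocyte. Together with other small sperm genes they gave 26 of 81 higher and 10 lower without overlap, beside 12.2% and 10.0% of all genes. The share of lower members was near that of all genes, and the median was 2.78. The 10 lower members were all nspc genes, a nematode-specific peptide family not named for sperm, and without that family 25 of 65 lay higher and none lower (median 2.97). The sum over all 81 was 899, 1887 and 4135 CPM in wild type and 2719, 16550 and 16410 CPM in che-2, so the sums overlapped through che-2 E30. nsph-3.2 was at 44.1, 74.9 and 158 CPM in wild type and 218, 1027 and 932 CPM in che-2 (log2 fold change 2.97, SE 0.68, adjusted p = 0.106). msp-152 was at 8.24, 16.7 and 56.3 CPM in wild type and 59.8, 445 and 461 CPM in che-2 (log2 fold change 3.57, SE 0.91, adjusted p = 0.137). msp-113 was at 3.22, 7.63 and 16.3 CPM in wild type and 16.8, 124 and 125 CPM in che-2 (log2 fold change 3.29, SE 0.85, adjusted p = 0.147). Members of the msp family are nearly identical in sequence, and how reads that match several of them were counted is not given in the sources used here, so values of single members are uncertain.

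Germ line genes outside the sperm lists also lay higher in part. Of 43 germ line granule and stem cell genes, 13 lay higher without overlap and none lower (30.2% and 0%, beside 12.2% and 10.0% of all genes, median 0.62). Among these, pgl-1, a P granule scaffold, was at 30.3, 46.3 and 56.4 CPM in wild type and 87.1, 97.8 and 124 CPM in che-2 (log2 fold change 1.22, SE 0.32, adjusted p = 0.155). The RNA-binding gene daz-1 was at 6.52, 14.8 and 17.6 CPM in wild type and 35.7, 29.3 and 32.1 CPM in che-2 (log2 fold change 1.32, SE 0.48, adjusted p = 0.326). Of 34 meiosis genes, 10 lay higher (29.4%) and none lower (median 0.55). Among these, syp-1 of the synaptonemal complex was at 5.95, 13.3 and 17.3 CPM in wild type and 26.1, 25.9 and 24.14 CPM in che-2 (log2 fold change 1.06, SE 0.39, adjusted p = 0.322). Of 28 oocyte and eggshell genes, 7 lay higher (25%) and 1 lower (3.57%), lin-41 as above, and the median was 1.42. The eggshell proteoglycan gene cpg-1 was at 4.89, 11.6 and 19.9 CPM in wild type and 22.3, 51.8 and 70.1 CPM in che-2 (adjusted p = 0.279). Its partner cpg-2 was at 7.62, 25.2 and 40.2 CPM in wild type and 41.6, 106 and 105 CPM in che-2 (adjusted p = 0.361). DNA replication and cell division genes gave 13 of 49 higher (26.5%) and none lower (median 0.57). Among these, cyclin B cyb-1 was at 15.4, 26.2 and 36.8 CPM in wild type and 38.9, 142 and 144 CPM in che-2 (log2 fold change 2.05, SE 0.53, adjusted p = 0.147). Aurora B air-2 was at 4.23, 5.51 and 9.16 CPM in wild type and 14.9, 14.3 and 19.7 CPM in che-2 (log2 fold change 1.37, SE 0.43, adjusted p = 0.243). None of these members passed.

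The yolk genes were low in wild type, and in che-2 E30 all but vit-1 were low too. vit-2 was at 4.76, 12.9 and 20.7 CPM in wild type and 5.86, 444 and 105 CPM in che-2 (log2 fold change 3.85, SE 1.71, adjusted p = 0.462). vit-6 was at 1.45, 3.06 and 5.21 CPM in wild type and 0.928, 94.95 and 45.9 CPM in che-2 (log2 fold change 3.86, SE 1.51, adjusted p = 0.372), so both overlapped through che-2 E30. vit-1 did not overlap, at 0.881, 0.471 and 1.55 CPM in wild type and 23.1, 30 and 12.8 CPM in che-2 (log2 fold change 4.49, SE 1.40, adjusted p = 0.241). vit-5 was at 0, 0.0942 and 1.06 CPM in wild type and 0, 4.83 and 5.81 CPM in che-2. Yolk proteins are made by the adult hermaphrodite intestine. The 16 somatic gonad genes had none without overlap and a median of 0.19. Of 16 vulva genes, 6 lay lower and none higher (37.5% and 0%, beside 10.0% and 12.2% of all genes, median -0.76). Among these, lin-31, a forkhead gene of the vulval precursor cells, was at 25.07, 20.3 and 12.01 CPM in wild type and 0.638, 10.5 and 3.89 CPM in che-2 (log2 fold change -1.93, SE 0.77, adjusted p = 0.386).

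Genes of the cilium itself were partly higher in che-2. Of 57 IFT, BBSome and transition zone genes tested, 11 lay higher without overlap and 3 lower (19.3% and 5.26%, beside 12.2% and 10.0% of all genes). The median was 0.64, and none passed. dyf-3, an IFT particle subunit, was at 3.61, 9.14 and 8.79 CPM in wild type and 32, 48.9 and 31.4 CPM in che-2 (log2 fold change 2.38, SE 0.51, adjusted p = 0.0815). osm-1, a large IFT particle subunit, was at 4.27, 1.84 and 7.17 CPM in wild type and 24.5, 34.7 and 17.9 CPM in che-2 (log2 fold change 2.53, SE 0.73, adjusted p = 0.203). che-3, the heavy chain of the IFT dynein, was at 5.904, 2.21 and 2.97 CPM in wild type and 21.1, 10.5 and 9.71 CPM in che-2 (log2 fold change 1.89, SE 0.66, adjusted p = 0.297). In each of the 3, E36 was the lowest che-2 library and still lay above every wild type library. osm-1 shares 48 bases of exon with K08B5.2 on the opposite strand.

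The other higher members were osm-5, che-11, che-13, ift-139, dyf-1 and dyf-2 of the IFT particle, osm-12 of the BBSome and nphp-1 of the transition zone. osm-5 was at 7.67, 12.7 and 6.47 CPM in wild type and 30.6, 55.4 and 26.8 CPM in che-2 (log2 fold change 2.07, SE 1.19, adjusted p = 0.62). ift-139 was at 3.08, 1.04 and 1.51 CPM in wild type and 9.39, 23.6 and 7.88 CPM in che-2 (log2 fold change 2.85, SE 1.52, adjusted p = 0.577). dyf-2 was at 6.08, 5.84 and 4.07 CPM in wild type and 11.7, 11.96 and 13.4 CPM in che-2 (log2 fold change 1.21, SE 0.72, adjusted p = 0.636). For dyf-1 the margin was narrow, at 9.82, 10.8 and 1.83 CPM in wild type and 11.1, 11.6 and 18.6 CPM in che-2 (log2 fold change 0.88, SE 0.85, adjusted p = 0.821). The 3 lower members were the transition zone genes mks-1 and mksr-1, and che-12. mks-1 was at 8.55, 8.06 and 6.27 CPM in wild type and 2.73, 5.01 and 2.16 CPM in che-2 (log2 fold change -1.21, SE 0.57, adjusted p = 0.507). mksr-1 was at 7.84, 2.97 and 1.38 CPM in wild type and 0.812, 0.766 and 0.422 CPM in che-2 (log2 fold change -2.60, SE 1.29, adjusted p = 0.536). che-12 was at 4.27, 13 and 6.31 CPM in wild type and 3.595, 0.5305 and 3.66 CPM in che-2 (log2 fold change -1.60, SE 1.33, adjusted p = 0.775). Summed over the list the level was 230.9, 307.3 and 169.8 CPM in wild type and 346.6, 477.2 and 329.4 CPM in che-2, with no overlap. Most members were under 10 CPM, where counting error limits single values.

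**Figure D4:**
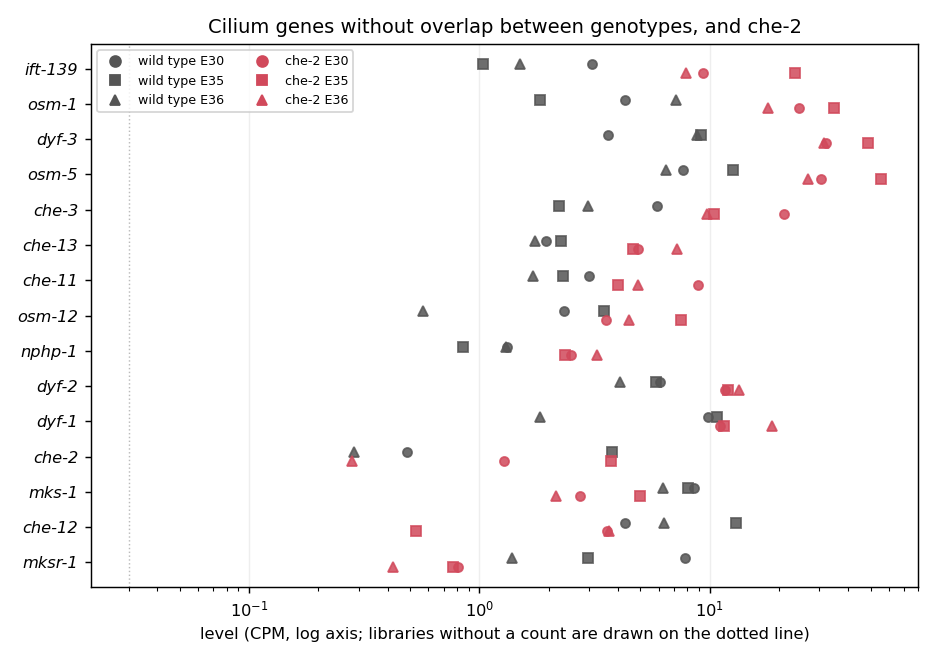
Rows are the 14 cilium genes without overlap between genotypes, ordered by log2 fold change, together with che-2, and points are levels in single non-AMsh libraries (CPM, log axis). The 11 rows from ift-139 to dyf-1 have the red che-2 points on the right of all grey wild type points, the 3 rows mks-1, che-12 and mksr-1 have them on the left, and the che-2 row overlaps.

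Other genes of sensory neurons were split. Of 47 sensory signalling genes, 3 lay higher and 8 lower without overlap (6.38% and 17%, beside 12.2% and 10.0% of all genes). The median was -0.26. Among the lower ones, the G alpha gene gpa-9 was at 31.6, 35.7 and 68.6 CPM in wild type and 17.7, 18.1 and 25.6 CPM in che-2 (log2 fold change -1.14, SE 0.40, adjusted p = 0.307). The guanylyl cyclase gene gcy-5 had no count in wild type and 1.797, 0.413 and 0.0938 CPM in che-2, at least 16.4-fold higher (adjusted p = 0.303), but 301 bases of its exons overlap srlf-34 on the opposite strand. Of 1367 chemoreceptor genes in the table, 276 had enough counts to be tested, and 14 lay higher and 28 lower (5.07% and 10.1%, beside 12.2% and 10.0% of all genes). srsx-31 had no count in wild type and 1.102, 1.42 and 0.797 CPM in che-2, at least 24.7-fold higher (adjusted p = 0.247). srlf-33 was at 2.16, 6.64 and 3.99 CPM in wild type and 0.5798, 0.589 and 0.422 CPM in che-2 (log2 fold change -2.996, SE 0.83, adjusted p = 0.176).

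Neuropeptides were mostly lower where the genotypes did not overlap. Of 68 neuropeptide-like protein genes, 16 lay lower (23.5%, beside 10.0% of all genes) and 2 higher (median -0.67). Of 30 FMRFamide-like peptide genes, 6 lay lower (20%) and none higher (median -0.67). Of 33 insulin-like genes, 7 lay lower (21.2%) and 1 higher (3.03%, beside 12.2% of all genes, median -0.54). flp-27 was nearly level within each genotype, at 90.1, 80.04 and 86.6 CPM in wild type and 28.1, 36.8 and 31.2 CPM in che-2 (log2 fold change -1.42, SE 0.32, adjusted p = 0.106). nlp-40, a peptide that the intestine releases to time defecation, was at 122.5, 83.5 and 112.4 CPM in wild type and 61.2, 50.2 and 44.9 CPM in che-2 (log2 fold change -1.03, SE 0.33, adjusted p = 0.265). ins-35 was at 16.2, 10.8 and 23.3 CPM in wild type and 3.83, 0.295 and 1.36 CPM in che-2 (log2 fold change -3.20, SE 0.85, adjusted p = 0.155). The exceptions upward included nlp-25, at 4.93, 2.78 and 2.36 CPM in wild type and 21.2, 37.1 and 39.7 CPM in che-2 (log2 fold change 3.28, SE 0.85, adjusted p = 0.147). None of the peptide genes passed.

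Among broad neuronal genes few were free of overlap. Of 34 genes of the synapse and of transmitter release, 2 lay higher and 2 lower (5.88% each, beside 12.2% and 10.0% of all genes). The median was -0.41, and none of 19 transmitter genes was free of overlap. Of 12 touch neuron genes, 4 lay lower (33.3%, median -0.75). Among these, mec-7, the touch neuron beta tubulin, was at 399, 425 and 372 CPM in wild type and 88.01, 238 and 197 CPM in che-2 (log2 fold change -1.19, SE 0.47, adjusted p = 0.373). mec-17, its alpha tubulin acetyltransferase, was at 619, 635 and 572 CPM in wild type and 176, 410.3 and 402 CPM in che-2 (log2 fold change -0.89, SE 0.40, adjusted p = 0.48). In both, che-2 E30 was the lowest library. The summed level of the touch neuron list was 1976, 2168 and 1683 CPM in wild type and 535.8, 1416 and 1136 CPM in che-2. 39 bases of mec-17 exon overlap arf-5 and 60 bases of mec-7 exon overlap deg-1, each on the opposite strand.

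Intestinal and immune genes were lower in part. Of 40 intestine genes, 9 lay lower and 1 higher without overlap (22.5% and 2.5%, beside 10.0% and 12.2% of all genes), the median was -0.29, and none passed. asp-6, an aspartyl protease of the gut, was at 2144, 1483 and 2250 CPM in wild type and 927, 944 and 629.7 CPM in che-2 (adjusted p = 0.225). asp-1, another, was at 3955, 3493 and 5136 CPM in wild type and 2373, 2437 and 1594 CPM in che-2 (adjusted p = 0.317). act-5, the actin of gut microvilli, was at 302, 156 and 245 CPM in wild type and 138, 118 and 89.8 CPM in che-2 (log2 fold change -1.02, SE 0.44, adjusted p = 0.442). Of 25 aspartyl and cathepsin proteases, 9 lay lower (36.0%) and none higher, asp-9 being the one that fell. Of 96 immune effectors, 20 lay lower (20.8%) and 4 higher (4.17%), spp-18 being the one that fell, and 14 of the 28 spp genes lay lower against none higher (median -1.10). The 146 C-type lectins had 24 lower (16.4%) and 21 higher (14.4%), shares not far from those of all genes, and clec-60 was the one that fell. clec-19 had no count in che-2 and 144, 63.4 and 2.32 CPM in wild type (at least 1261-fold lower, adjusted p = 0.0533). clec-123 was at 9.25, 16.4 and 12.9 CPM in wild type and 36.4, 76.9 and 70.9 CPM in che-2 (log2 fold change 2.25, SE 0.56, adjusted p = 0.133).

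In the pharynx, 3 of 8 gland genes lay higher without overlap and none lower (37.5% and 0%, beside 12.2% and 10.0% of all genes). These were phat-4, described above, phat-5 and phat-3. phat-5 (chromosome V, 4121486 to 4122517) and phat-4 (4129906 to 4130908) lie within 20 kb of the called rise T05B4.10, so these rises share a stretch of the chromosome. phat-5 was at 3.26, 2.45 and 2.24 CPM in wild type and 6.78, 26.5 and 27.1 CPM in che-2 (log2 fold change 2.92, SE 1.05, adjusted p = 0.317). phat-3 was at 0.0881, 0.565 and 1.43 CPM in wild type and 4.58, 5.42 and 7.83 CPM in che-2 (log2 fold change 3.09, SE 1.18, adjusted p = 0.361). hlh-6, the regulator of gland fate, overlapped at 6.61, 4.76 and 1.995 CPM in wild type and 2.32, 2.299 and 0.141 CPM in che-2. The 11 abu genes of the pharyngeal cuticle and the 10 pharyngeal muscle genes gave 1 member without overlap in all, tnt-4 at 36.2, 60.4 and 30.3 CPM in wild type and 69.05, 105 and 65.96 CPM in che-2 (log2 fold change 0.92, SE 0.43, adjusted p = 0.493). Of 44 body wall muscle genes, 6 lay lower and none higher (13.6% and 0%), the lower share being near the 10.0% of all genes. The median was -0.10 (0.11 on library totals), and cpn-3, a calponin, was at 1700, 1630 and 1786 CPM in wild type and 834, 1102 and 1049 CPM in che-2 (log2 fold change -0.78, SE 0.32, adjusted p = 0.406). Proteasome subunits gave 6 of 33 higher (18.2%, beside 12.2% of all genes) and none lower (median 0.35). Among these, rpn-12 was at 18.3, 15.4 and 32.8 CPM in wild type and 40.4, 39.3 and 57.6 CPM in che-2 (log2 fold change 1.04, SE 0.40, adjusted p = 0.361). Cytosolic ribosomal proteins had a median of -0.44, with 4 of 80 lower (5%, under the 10.0% of all genes). However, wild type E36 alone held 118700 CPM of this list against 52570 to 62280 CPM in the other 5 libraries. Without that library the median was 0.03.

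The other lists held no called gene. The 2 coelomocyte genes, of scavenger cells in the body cavity, had a median of -1.62, and unc-122 lay lower without overlap at 108, 44.7 and 25.3 CPM in wild type and 21.4, 19.2 and 11.35 CPM in che-2 (log2 fold change -1.78, SE 0.95, adjusted p = 0.578). Of 34 hypodermis and seam genes, 6 lay lower and 3 higher (17.6% and 8.82%, beside 10.0% and 12.2% of all genes). Of 12 excretory genes, 2 lay lower and 1 higher (16.7% and 8.33%). Basement membrane genes had 4 of 22 lower (18.2%) and none higher, and 7 markers of other glia had 1 lower (14.3%). Of 84 homeobox genes, 13 lay lower and 4 higher (15.5% and 4.76%, beside 10.0% and 12.2% of all genes). Of 202 nuclear hormone receptors, 22 lay lower and 3 higher (10.9% and 1.49%), so their share of lower genes was about that of all genes. Detoxification enzymes had 25 of 165 lower and 6 higher (15.2% and 3.64%), and genes of lipid metabolism 7 of 81 and 12 (8.64% and 14.8%). Transthyretin-related genes had 6 of 57 lower and 5 higher (10.5% and 8.77%, near the shares of all genes). Cuticlins and zona pellucida proteins had 4 of 41 and 1 (9.76% and 2.44%), and astacin proteases 2 of 34 and 1 (5.88% and 2.94%). Mitochondrial genome genes had 4 of 22 lower (18.2%) and none higher, and nuclear oxidative phosphorylation genes 2 of 63 and 3 (3.17% and 4.76%). Secretory chaperones had 3 of 31 and 1 (9.68% and 3.23%), and histones 2 of 39 and 1 (5.13% and 2.56%). Tubulins had 1 of 15 lower and 2 higher (6.67% and 13.3%), and actin cytoskeleton genes 2 of 26 and 5 (7.69% and 19.2%).

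The count of list members called depended on the tool. DESeq2, which called 2.9% of genes higher and 2.08% lower, called 5 of the 6 dauer cuticle genes, 14 of the hedgehog-related genes and 30 of the collagens lower. It called 44 of the major sperm protein list higher and 2 lower, 6 of the sperm development genes higher and 2 of the cilium genes higher.

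**Figure D5:**
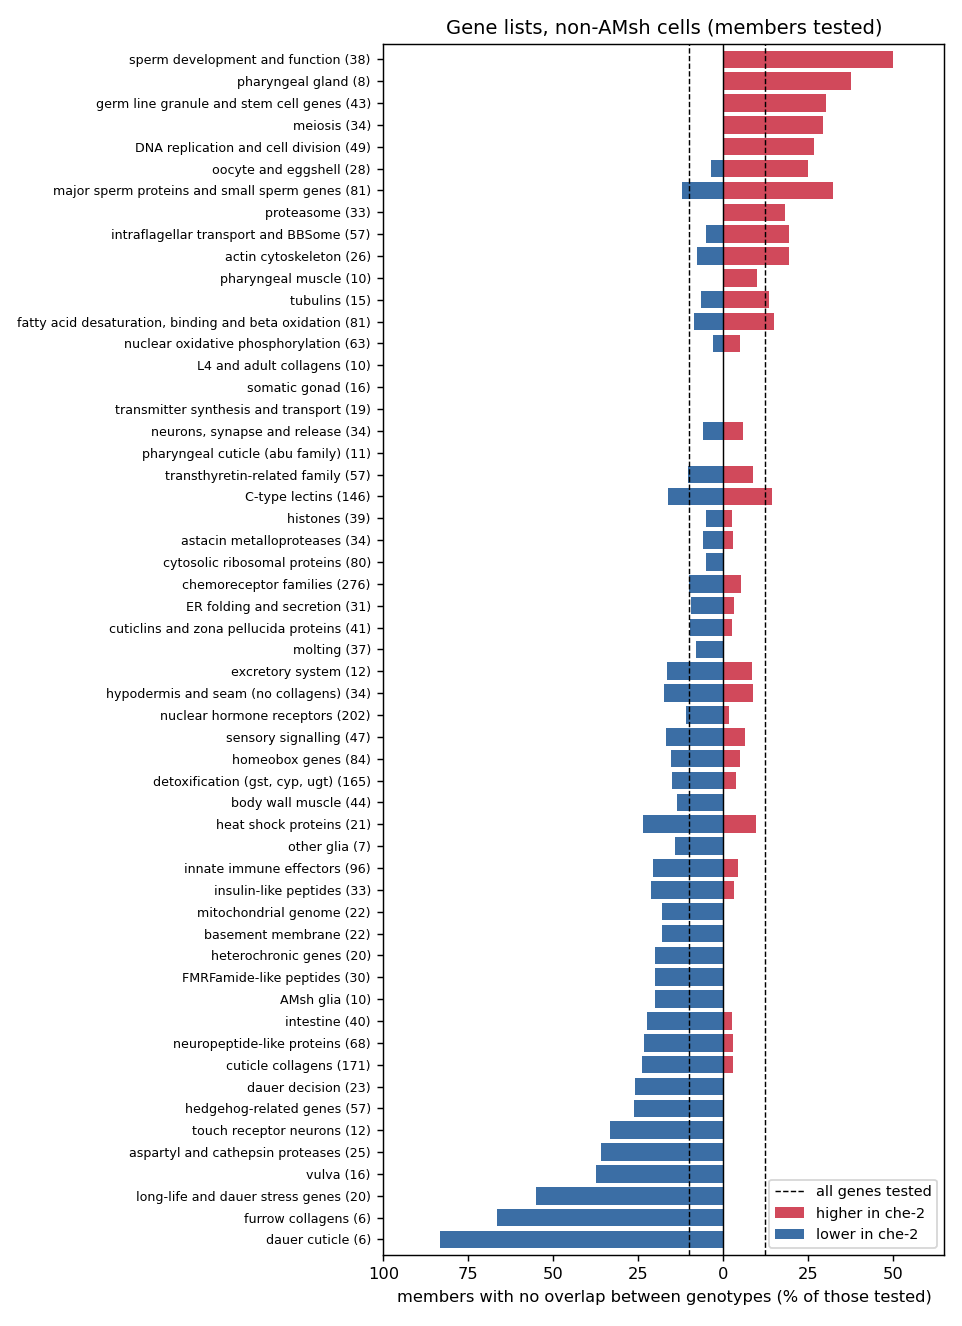
Bars give, for each of the 55 gene lists with at least 5 tested members (number in brackets), the percentage of members whose 3 che-2 libraries all lay above (red, right) or all below (blue, left) the 3 wild type libraries, with dashed lines for all 16690 tested genes at 12.2% and 10.0%. Sperm genes, 19 of 38, reach farthest to the right, and dauer cuticle, furrow collagen and dauer stress genes at 83.3, 66.7 and 55.0% farthest to the left.

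Over all genes, part of the difference between genotypes ran in the direction in which the wild type libraries differed among themselves. Of the 1674 genes lower in che-2 without overlap, 36.2% were highest in wild type E30 and lowest in wild type E36, against 15.8% of all tested genes. Of the 2033 genes higher in che-2, 45.3% were lowest in wild type E30 and highest in wild type E36, against 23.8%. The part that stage has in these differences was not tested, because the labels give no stage per library. Other called genes did not have that order in wild type. ZK218.5 and ZK218.11 were highest in wild type E35, and col-108, F57F4.2 and aat-1 were highest in wild type E36.

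The AMsh libraries of the same animals gave the same comparison in another fraction. There 77 genes passed (0.461% of those tested), and 23 genes were shared, 23 of the 24 called in non-AMsh cells and 23 of the 77. All 24 had the same sign in both fractions. spp-18 had a log2 fold change of -10.74 in non-AMsh cells and -11.06 in AMsh cells, col-158 of -7.48 and -8.11, and Y43F8A.2 of 2.15 and 2.90. The exception was Y113G7C.1, with 2.23 in non-AMsh cells (adjusted p = 0.0486) and 0.84 in AMsh cells (adjusted p = 0.363). The AMsh libraries of Y113G7C.1 were at 35.2, 22.4 and 27.7 CPM in wild type and 52.6, 66.3 and 33.7 CPM in che-2, with che-2 E36 below wild type E30. The difference between the 2 changes was tested for every gene in the same edgeR model, and none passed (0% of those tested, smallest adjusted p = 1), with 281 genes at an unadjusted p under 0.05 and 4 called by DESeq2. No gene was shown to change by a different amount in the non-AMsh cells. The 2 fractions share animals, so one is not an independent repeat of the other. The model did not pair the 2 fractions of the same animals, so spread between samples stayed in the error of the difference. The absence of calls therefore does not show that the changes were equal.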

How the data were processed

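For each genotype and sorted fraction, 3 RNA libraries were sequenced, 12 in all in 4 groups. The authors deposited raw counts per gene in 1 table of 46726 genes, made from reads processed with CASAVA 1.8.2, FastQC, STAR 2.3 and featureCounts on WBcel235, per the submitters' processing notes. The annotation release, the strand setting and the handling of multiply matching reads are not given in the sources used here. Columns were assigned to samples by genotype, fraction and the codes E30, E35 and E36, because replicate numbers repeat in some titles. The header gives each code once, above a block of 4 columns, and the column paths of the block headed E35 read E36, so which block is E35 and which E36 is less certain than genotype and fraction. Symbols from the reference gene names matched 43623 genes, and coordinates are those of the WBcel235 annotation.

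From the deposited counts, all 12 libraries were fitted as 4 groups with edgeR 4.0.16 (R 4.3.3) by quasi-likelihood F tests after TMM scaling and filterByExpr, and p values were adjusted by Benjamini-Hochberg over the 16690 genes tested, with a threshold of 0.05. Levels are CPM on TMM-scaled library sizes, with a prior count of 2 for log2 CPM in the principal component analysis. Standard errors are the size of the log2 fold change divided by the square root of F. A gene is without overlap when its 3 che-2 libraries all lie above, or all below, the 3 wild type libraries. A group without counts was set to a floor of 3 counts over the group for fold bounds, and ratios with 1 to 3 counts in a group have 95% intervals. Bounds and intervals cover counting error only. The precision of low genes follows from the 15420762 to 26019499 counts per non-AMsh library. Steps were tested on simulated counts. DESeq2 1.42.0 and limma 3.58.1 were alternatives, and tables and plots were made in pandas 2.3.3 and matplotlib 3.10.9 under Python 3.11.15.

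The genes and the 57 gene lists were chosen with earlier results of these data known, so lists are described by counts and medians without a test. Named genes are up to 15 in each direction with the largest change among those past the threshold with a mean of at least 5 CPM and no overlap, filled up to 10 by smallest p. To these were added che-2, 5 AMsh marker genes, and up to 4 called members or the 2 members of smallest p of each list. Other genes in the text were chosen after their values were seen.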

Additional observations from a re-analysis of the deposited data

How the results depend on the processing

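The count of genes called in non-AMsh cells, 24 in the report, was the result most open to the settings. It was 14 with RLE size factors, 81 with library totals without TMM, 209 without a filter on low counts, 11 with the 6 non-AMsh libraries alone, 778 with DESeq2 and 974 with limma voom with sample weights. DESeq2 called all 24 of the reported genes, voom 23 and the fit of 6 libraries 10. Leaving out 1 library gave 0 to 102 genes, and leaving out all 4 libraries of a code gave 39 without E30, 1 without E35 and 0 without E36. Where the count was 0, 1307 genes without wild type non-AMsh E35, 1809 without che-2 non-AMsh E30, 1089 without che-2 non-AMsh E36 and 935 without code E36 had an unadjusted p under 0.05. Without wild type AMsh E30 and che-2 AMsh E35 it was 290, an alternative chosen after the data were seen. The cause of these shifts was not tested. With the code as a replicate block the count was 167 in 12 libraries and 496 in the 6 non-AMsh libraries. Deviations of same-code libraries correlated at 0.19, 0.08 and 0.2 for E30, E35 and E36, each the highest for its wild type library. Those of libraries of different codes correlated at -0.171 to 0.033. Since E35 was under 0.1, the codes were not taken to pair the samples.

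The difference between fractions gave 0 calls except 4 with DESeq2. Named genes changed sign in 12 comparisons with an alternative, all in the 3 genes that follow, and kept direction in the others, with 3058 on the same side of the threshold, 228 newly past it and 210 no longer past it. The log2 fold change of che-2 was -0.60 with voom and -1.04 to 2.18 with 1 library left out, and -0.03 without code E30. That of fig-1 was -0.028 with voom, -0.15 to 0.24 with 1 library left out, and -0.27 without code E30. That of F16F9.3 was -0.08 to 0.51 with 1 library left out and -0.11 without code E36. Medians of 17 of the 57 lists changed sign under at least 1 alternative, 8 of them under another scaling. Among the others, that of ribosomal proteins was -0.44 and ran up to 0.03, that of pharyngeal muscle was 0.22 and ran down to -0.31, and that of histones was 0.25 and ran down to -0.59. Depth limits genes near the floor of 0.115 to 0.195 CPM per library, which include most chemoreceptors and several cilium genes.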
